A study of Mus musculus with 4 samples.

Results

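The 133 transcripts described here belong to 89 genes that encode histones, the enzymes that modify them, the proteins that read those modifications, chromatin remodellers and the enzymes of DNA methylation. They were chosen by gene symbol from the 11304 transcripts of 7453 genes in the authors' deposited table of significant transcripts. All listed transcripts of a matching gene were kept, except that the rule leaves out chromosomes X and Y, which removed 18 transcripts of 13 genes. The choice by symbol used no measured value, but every transcript of the table had already been selected by the authors on these same libraries, by thresholds of 0.05 on the adjusted p and of 1 on the size of the log2 fold change. A count of changed members is therefore no independent evidence of change, and members that the authors did not call are not analysed here.

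RNA from the left testis of C57BL/6 mice at postnatal day 56 was compared between a conditional knockout of Ppp2ca (cKO, genotype Ppp2ca-/-) and wild type (WT), with 2 libraries each. The gene product is a catalytic subunit of the phosphatase PP2A, and the study asks how it bears on meiosis in male germ cells. The labels name neither the Cre driver nor the cells in which the gene was deleted, and they do not say how testes were assigned to animals. Neither Ppp2ca nor its paralogue Ppp2cb has a transcript in the table, so the deletion could not be checked in these libraries.

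Library totals recovered from the deposited values were 18684092 and 19834137 reads in the cKO libraries and 17612049 and 19785639 in the WT libraries. The members took 0.313% and 0.301% of the reads in the cKO libraries, against 0.464% and 0.485% in the WT libraries. Normalised read counts are reads divided by the authors' size factors, which were 1.24 and 1.25 for the cKO and 0.818 and 0.854 for the WT. Log2 fold changes are cKO over WT, each with its standard error from the fit, and adjusted p-values come from edgeR's quasi-likelihood test with Benjamini-Hochberg adjustment over the 64840 transcripts the authors tested. Other scalings shift the log2 fold changes of these transcripts together: trimmed mean of M-values (TMM) by 1.50, relative log expression (RLE) by 1.56, upper quartile by 1.08, library totals by 0.53, and equal summed counts of Sertoli markers by -1.30. TMM, RLE, upper quartile and Sertoli factors were computed within the table. The Sertoli markers used were transcripts that the authors had already called changed, so setting their counts equal removes a difference for which they were selected. TMM and RLE take most transcripts as unchanged, which a table of selected transcripts does not meet. Under them the median log2 value over the table was -0.088 and -0.031, against -1.70 with the authors' size factors.

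The cell type markers in the table differed between the genotypes over the same libraries. All 12 tested round spermatid markers and 11 of the 12 elongating spermatid markers fell, and the summed normalised counts of the elongating list were 14923 and 32512 in the cKO, against 330204 and 360944 in the WT. The round spermatid list summed to 5211 and 7408 in the cKO and to 35279 and 42442 in the WT. Of 12 spermatocyte markers, 9 were listed and 5 fell, with sums of 45374 and 55130 in the cKO, against 118779 and 145568 in the WT. The sums of these 3 lists were lower in both cKO libraries. Sertoli markers rose for 5 of 10 listed genes, Leydig markers for 7 of 8 and leukocyte markers for 4 of 7. Sertoli sums were 39845 and 42100 in the cKO, against 15769 and 17526 in the WT. The Leydig list summed to 29502 and 37487 in the cKO and to 10379 and 10513 in the WT. Leukocyte sums were 2947 and 2845 in the cKO, against 747 and 867 in the WT. The somatic lists were higher in both cKO libraries. Of 12 spermatogonial markers, 7 were listed, of which 1 fell and 1 rose. Their sums were 6408 and 7185 in the cKO and 8812 and 12277 in the WT. The median log2 fold change over the most abundant transcript of each of the 7 was 1.47, opposite in direction to the sums. No lead marker transcript was at 0 in either genotype. In bulk tissue, fewer cells of a type and less RNA per cell cannot be told apart, and the part of cell composition in each value below was not tested.

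Chromatin is rebuilt during spermatogenesis. In meiotic cells, histone methylation and acetylation mark the sites and chromosomes that recombine or fall silent, and testis-specific histone variants are laid down. In spermatids, histones become heavily acetylated, are bound by bromodomain proteins, and are exchanged for transition proteins and then protamines. Most replication-dependent histone genes lie in clusters, are transcribed mainly in cells that copy their DNA, and give mRNAs that end in a stem-loop rather than a poly(A) tail. How the RNA was selected before library preparation is not given in the sources used here, so the part of that step in the histone counts was not tested.

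Of the 133 transcripts, 119 passed the filter on low counts. Among these, 36 transcripts of 27 genes fell in the cKO, 30.3% of those tested, against 41.4% of all tested transcripts in the table. A further 14 transcripts of 13 genes rose, 11.8% of those tested, against 10.4% in the table, and 69 did not pass. The share that fell was lower than in the table and the share that rose was close to it. This difference was not tested. The median log2 fold change of the members was -1.17 with the authors' size factors, against -1.70 over the table, and it turned positive under TMM, RLE and upper quartile scaling, at 1.48, 1.54 and 0.029. The split depended on the scaling, with 11 members falling and 58 rising under TMM, against 12.3% and 34.3% of the table. When either WT library was left out, edgeR called 0 members and 0 transcripts of the whole table, with 50 to 52 members lower and 34 to 35 higher at an unadjusted p under 0.05.

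The members were sorted by the role of their protein. In the authors' deposited table, 10 of 15 histone transcripts, 10 of 13 transcripts of DNA methylation enzymes and 9 of 16 methyltransferase transcripts were higher in the cKO. In the same table, 24 of 35 remodeller transcripts, 17 of 26 transcripts of acetyltransferases and deacetylases and 15 of 24 transcripts of bromodomain, chromobox and PHD finger proteins were lower. Over all listed transcripts, 66.9% were lower and 33.1% higher there, and differences between roles were not tested. The median log2 values of histones, methyltransferases and demethylases were positive with the authors' size factors and turned to -0.11, -0.18 and -0.041 with Sertoli counts set equal, while that of remodellers, at -1.50, turned to 0.056 under TMM and 0.11 under RLE. The normalised counts of the genotypes did not overlap for any of the 133 members, which holds for 100% of the table when rounded (11302 of 11304 transcripts). On the FPKM scale, in which reads are divided by transcript length and library total, transcripts of Brdt, Chd4 and Arid3b did overlap.

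**Figure D1:**
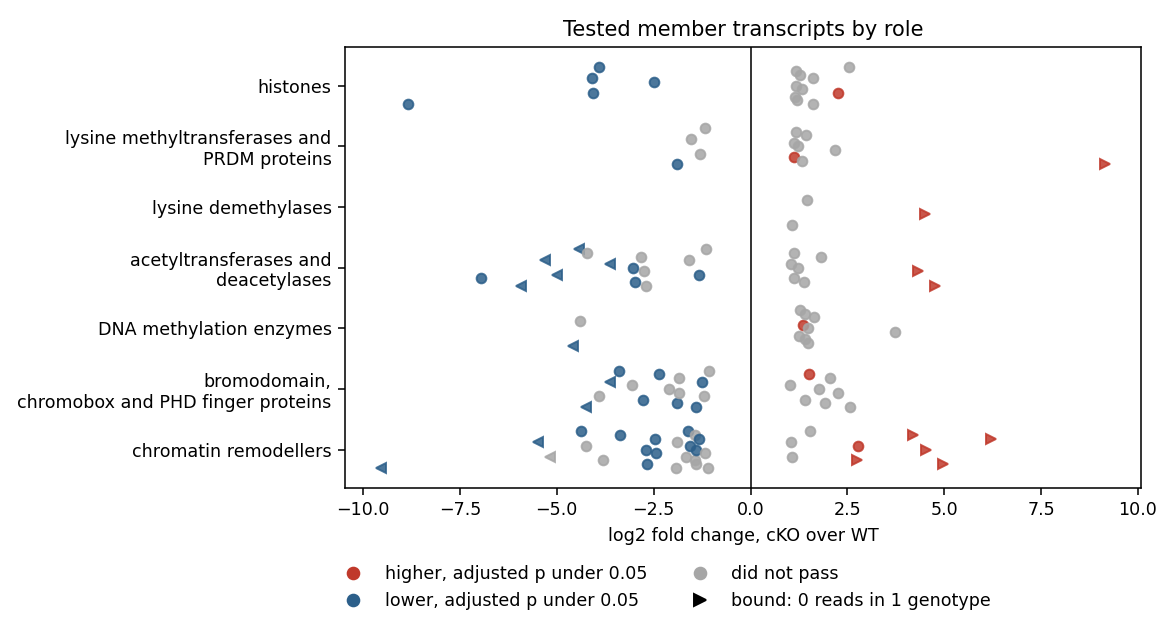
Log2 fold change (cKO over WT, authors' size factors) of the 119 tested member transcripts, by role. Red and blue mark transcripts higher or lower at an adjusted p under 0.05, and grey those that did not pass. Circles show fitted values and triangles the bound set by 3 counts for transcripts at 0 reads in 1 genotype. Histones and DNA methylation enzymes lie mostly to the right of 0, remodellers and acetylation enzymes mostly to the left.

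The 15 histone transcripts fell into a set that was lower in the cKO and a set that was higher. Each comes from its own gene, and 12 of the genes lie on chromosome 13. Every listed transcript had passed the authors' threshold of 1 on the size of the log2 fold change, so such a split follows from the selection. With the authors' size factors, the sum over all 15 was nearly level, while its makeup differed. It was 4948 and 5053 normalised counts in the cKO and 4765 and 4960 in the WT. Other scalings shift this sum too, by 1.50 on the log2 scale under TMM and by -1.30 with Sertoli counts set equal. The 5 transcripts that fell summed to 145 and 282 in the cKO, against 3296 and 3322 in the WT. The other 10 summed to 4804 and 4772 in the cKO, against 1469 and 1639 in the WT.

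Bases upstream of the annotated start of 4 histone genes, 2 lower and 2 higher in the cKO, are given as examples. Each is the 150 bases before the start, read 5′ to 3′ on the gene's strand from RefSeq on GRCm38.p6, with any CCAAT or its reverse complement ATTGG in capitals.
H2al2a, lower, chr2:17996959-17997108, minus strand: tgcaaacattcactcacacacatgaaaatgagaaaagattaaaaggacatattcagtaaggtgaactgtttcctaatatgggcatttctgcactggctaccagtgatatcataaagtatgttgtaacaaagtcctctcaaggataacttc
H2bl1, lower, chr13:98984566-98984715, minus strand: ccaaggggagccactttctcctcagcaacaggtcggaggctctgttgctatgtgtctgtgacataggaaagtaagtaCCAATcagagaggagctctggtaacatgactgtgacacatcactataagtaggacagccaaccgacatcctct
H2aw, higher, chr11:58954535-58954684, plus strand: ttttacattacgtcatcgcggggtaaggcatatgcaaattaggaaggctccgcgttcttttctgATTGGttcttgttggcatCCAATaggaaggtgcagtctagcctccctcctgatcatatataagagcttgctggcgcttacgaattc
H1f2, higher, chr13:23738657-23738806, plus strand: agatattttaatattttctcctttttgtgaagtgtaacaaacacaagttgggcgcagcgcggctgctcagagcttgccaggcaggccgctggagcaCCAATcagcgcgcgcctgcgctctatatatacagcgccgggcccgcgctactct
CCAAT is the letter pattern of the box bound by NF-Y, common in promoters of replication-dependent histone genes. On either strand it starts 73 bases before the start of H2bl1, 86 and 68 before that of H2aw and 54 before that of H1f2, and it was not found in the H2al2a window. A RefSeq window of 300 bases, from 250 before to 50 after the start, was found for 69 of the 89 genes. Among the 5 lower histones only H2al2a and H2bl1 had a window, so the lower and higher sets cannot be compared by motif. CCAAT on either strand was in 8 of the 9 matched histone genes that were higher in the authors' deposited table, in 25 of 58 members other than histones and in 41.1% of all 27025 genes with a window. None of the motifs searched contains another. TATAAA on either strand was in 5 of those 9 histone genes, in 3 of the 58 other members and in 15.7% of all genes. GGGCGG on either strand was in 3 of the 9, in 48 of the 58 and in 38.2% of all genes. These are counts of letters in the windows, and no binding was measured.

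H2al2a encodes a short H2A variant that appears in late mouse spermatids and opens nucleosomes for transition proteins. It had 41.2 and 163 normalised counts in the cKO libraries, against 1661 and 1807 in the WT libraries. Both cKO values lay far below both WT values, and the cKO libraries differed between themselves. It fell by 4.08 ± 0.68 on the log2 scale (SE, n = 2 each, edgeR adjusted p = 0.0293). Per length it was among the most abundant members in the WT, at 8.32 and 34.2 FPKM in the cKO and 233 and 254 FPKM in the WT. H2bl1, a testis H2B variant, had 25.9 and 45.6 normalised counts in the cKO, against 636 and 435 in the WT. Its genotypes were far apart, and it fell by 3.90 ± 0.45 on the log2 scale (edgeR adjusted p = 0.0180). Hist1h2bp, an H2B gene of the large cluster, had 75.1 and 69.6 normalised counts in the cKO and 291 and 522 in the WT, a log2 fold change of -2.49 ± 0.41 (edgeR adjusted p = 0.0293), which was -0.98 under TMM and -0.92 under RLE and did not pass there.

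The Hist1h2al locus on chromosome 13 had 0 and 2.40 normalised counts in the cKO, against 675 and 533 in the WT. Nearly all of its reads were thus in the WT libraries. The counts in the WT were 499.6-fold those in the cKO, with a counting interval of 170.5 to 2427 (edgeR adjusted p = 0.0154). GENCODE vM21 annotates it as a processed pseudogene, as it does H1f11-ps, which had 2.42 and 0.800 normalised counts in the cKO and 33.0 and 24.6 in the WT (edgeR adjusted p = 0.0309). Histone copies share long stretches of sequence, so reads of these loci and of the clustered genes may be divided among copies, and their values are uncertain to that extent. The direction of all 5 falling histones held under each of the 5 other scalings. H1f11-ps, like Hist1h2bp, did not pass under TMM, RLE or upper quartile scaling.

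H2aw was the histone transcript that rose. It encodes an H2A of the small histone cluster on chromosome 11 and had 2101 and 2182 normalised counts in the cKO, against 473 and 429 in the WT. The libraries within each genotype were close together and the genotypes were widely separated, with a log2 fold change of 2.25 ± 0.24 (edgeR adjusted p = 0.0163). With Sertoli counts set equal it was 0.94, no longer past the threshold. The other 9 higher histone transcripts did not pass. H1f2, which encodes a linker histone of somatic and dividing cells, had 902 and 679.9 normalised counts in the cKO and 338 and 317 in the WT (log2 1.27 ± 0.28, edgeR adjusted p = 0.0545). The core histones H2ac15, H2bc4, H2bc15, H3c3, H3c8, H3c10, H4c4 and H4c11 had log2 values between 1.14 (H4c4) and 2.55 (H3c8). Their adjusted p-values lay between 0.0743 for H3c3 and 0.183 for H2ac15 in the same edgeR fit. The median of the 10 was 1.30 with the authors' size factors, and it was 0.0078 with Sertoli counts set equal.

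**Figure D2:**
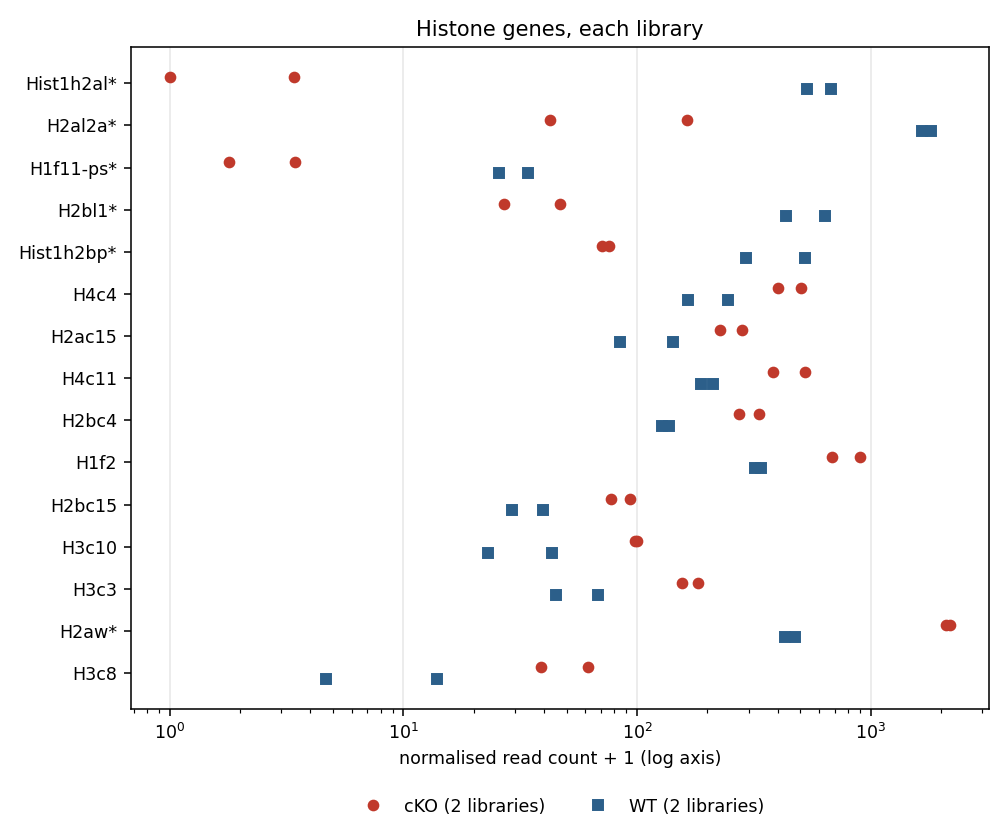
Normalised read counts plus 1 (log axis) of the 15 histone transcripts in each library, cKO as red circles and WT as blue squares, ordered by fold change. Asterisks mark transcripts with an edgeR adjusted p under 0.05. The 5 upper transcripts are lower in both cKO libraries and the 10 lower ones are higher in both.

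Among writers of histone methylation, the transcripts of Ehmt2 went in both directions. Ehmt2 encodes G9a, which methylates lysine of histone H3 in silent chromatin and is needed for meiotic prophase in mouse germ cells. Transcript Ehmt2-204 (ENSMUST00000114033) had 1020.4 and 1010.3 normalised counts in the cKO and 0 reads in both WT libraries. It was at least 566-fold higher in the cKO (edgeR adjusted p = 0.0154). Transcript Ehmt2-202 (ENSMUST00000078061) had 955 and 1712 normalised counts in the cKO, against 3952 and 5953 in the WT, and fell by 1.89 ± 0.39 on the log2 scale (edgeR adjusted p = 0.0449). For both transcripts, the cKO and WT values were clearly apart. The log2 value of Ehmt2-202 was -0.41 under TMM, -0.35 under RLE and -0.82 under upper quartile scaling, and it passed under none of these (edgeR adjusted p = 1, 1 and 0.360).

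The coding sequences of these Ehmt2 transcripts differ by a cassette exon of 102 bases, which adds 34 codons without shifting the reading frame. It is exon 10 of 28 in Ehmt2-204 and is skipped in Ehmt2-202, and it lies at chr17:34905610-34905711 on the plus strand of GRCm38. The exon is shown in capitals between the last 30 bases of the exon before it and the first 30 of the exon after it, as in Ehmt2-204, above the joint without it, as in Ehmt2-202.
With the exon: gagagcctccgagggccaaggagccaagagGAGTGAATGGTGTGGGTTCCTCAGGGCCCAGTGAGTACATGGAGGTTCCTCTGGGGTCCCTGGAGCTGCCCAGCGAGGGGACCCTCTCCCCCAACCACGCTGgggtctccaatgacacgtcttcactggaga
Without the exon: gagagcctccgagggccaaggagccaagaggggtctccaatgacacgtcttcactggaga
Of the reads assigned to this pair of transcripts, 51.7% (Wilson 95% interval 49.7 to 53.6) and 37.1% (35.5 to 38.8) were on the form with the exon in the cKO libraries. In the WT libraries it was 0 of 3231 and 0 of 5083 reads, which allows a share of up to 0.0929% and 0.0590%, the share that 3 counts of the total would give. The exon is in 2 of the 14 Ehmt2 transcripts of GENCODE vM21, and the other one is not in the table. The authors' counter assigned reads among isoforms, so a value of 0 is an estimate, and these intervals cover counting error only. The remaining listed transcript, Ehmt2-208, had 92.9 and 172 normalised counts in the cKO and 340.0 and 429.8 in the WT (log2 -1.54, edgeR adjusted p = 0.0907). Summed over the listed Ehmt2 transcripts, the level was 40.7 and 56.1 FPKM in the cKO and 63.1 and 86.5 FPKM in the WT.

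Kmt2a, a methyltransferase of H3 at active promoters, had 2585 and 2321 normalised counts in the cKO, against 1153 and 1094 in the WT. Both cKO values were higher, and it rose by 1.13 ± 0.23 on the log2 scale (edgeR adjusted p = 0.0435), but with Sertoli counts set equal the value turned to -0.18. Its relatives Kmt2b and Kmt2c had log2 values of 1.32 and 1.17 and did not pass (edgeR adjusted p = 0.138 and 0.148). Setd7, which adds a single methyl group to H3 and to other proteins, had 464 and 456 normalised counts in the cKO and 183 and 206 in the WT (log2 1.24 ± 0.29, edgeR adjusted p = 0.0601). Ehmt1, the partner of G9a, had a log2 value of 1.44 ± 0.38 for its transcript with the smallest p, an intron-retaining one (edgeR adjusted p = 0.0849). The 3 listed PRDM genes, Prdm2, Prdm4 and Prdm8, were all lower in the authors' deposited table, and none of their transcripts passed the edgeR test (adjusted p = 0.108 for Prdm4 and 0.147 for Prdm8). Prdm2 was too low to test, with 0 reads in both cKO libraries and 121 and 3.51 normalised counts in the WT, 1 library holding nearly all of them. Setd1b, Setd3, which acts on actin, and 1 of 2 transcripts of Kmt5b were also too low to test, and the other Kmt5b transcript had a log2 value of 1.11 ± 0.32 (edgeR adjusted p = 0.113).

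Lysine demethylases remove these methyl groups, and 4 had a listed transcript. The Kdm2a transcript, annotated as a retained intron, had 57.4 and 24.0 normalised counts in the cKO and 0 reads in the WT, at least 22.6-fold higher in the cKO (edgeR adjusted p = 0.0383). Kdm4a had 137 and 192 normalised counts in the cKO and 67.3 and 51.5 in the WT, a log2 value of 1.47 ± 0.40 (edgeR adjusted p = 0.0919). Kdm1b, which acts on H3 in oocytes and other cells, had 345 and 358 in the cKO and 185 and 149.9 in the WT (log2 1.07 ± 0.31, edgeR adjusted p = 0.109), and its value was -0.24 with Sertoli counts set equal. The genotypes did not overlap for any of these 3 genes, as held for every member and nearly the whole table. Kdm2b was too low to test.

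Among 26 transcripts of acetyltransferases and deacetylases, 9 of the 23 tested fell (39.1%, against 41.4% of the table) and 2 rose (8.70%, against 10.4%). Their median log2 value of -2.71 stayed negative under each other scaling, at -0.018 under RLE. Hdac11, the class IV deacetylase, had 6 listed transcripts, the most of any member gene, all of them lower in the authors' deposited table. Its main transcript had 207 and 369 normalised counts in the cKO, against 2002 and 2508 in the WT. The cKO values lay well below the WT values, and it fell by 2.97 ± 0.37 on the log2 scale (edgeR adjusted p = 0.0191). A shorter coding transcript, Hdac11-206, had 0 and 1.60 normalised counts in the cKO and 72.2 and 156 in the WT, which was 143-fold those in the cKO, with a counting interval of 39.0 to 1188 (edgeR adjusted p = 0.0230).

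Class IIa deacetylases, which shuttle between nucleus and cytoplasm, changed by transcript. Hdac9-204, a coding transcript, had 0 reads in both cKO libraries and 46.5 and 48.0 normalised counts in the WT, at least 39.2-fold lower in the cKO (edgeR adjusted p = 0.0214). Hdac9-201 and Hdac9-210 were likewise at 0 in the cKO, at least 21.3-fold and 12.4-fold lower (edgeR adjusted p = 0.0358 and 0.0355). These 2 calls were lost in places: Hdac9-201 had an adjusted p of 0.0738 under TMM and 0.0731 under RLE in edgeR, and Hdac9-210 had 0.0511 with no filter in edgeR and 0.0662 by DESeq2. By contrast, ENSMUST00000239340 of Hdac9, which is not in GENCODE vM21, had 38.8 and 33.6 normalised counts in the cKO and 0 reads in the WT, at least 20.2-fold higher (edgeR adjusted p = 0.0262). All Hdac9 transcripts were scarce, below 1 FPKM in every library. An intron-retaining Hdac5 transcript had 0 reads in the cKO and 94.2 and 52.7 normalised counts in the WT, at least 60.5-fold lower in the cKO (edgeR adjusted p = 0.0227). Hdac10, a polyamine deacetylase, had a coding transcript with 42.0 and 55.2 normalised counts in the cKO and 0 reads in the WT, at least 27.1-fold higher in the cKO (edgeR adjusted p = 0.0247).

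The acetyltransferase Kat8 (MOF), which acetylates histone H4, had 407 and 384 normalised counts in the cKO, against 1098 and 874 in the WT, and fell by 1.32 ± 0.26 on the log2 scale with the authors' size factors (edgeR adjusted p = 0.0431), while its value was 0.17 under TMM and 0.24 under RLE. Both WT values were higher. A short coding transcript of Kat2b, the acetyltransferase PCAF, had 0 reads in the cKO and 31.8 and 44.5 normalised counts in the WT, at least 31.8-fold lower in the cKO (edgeR adjusted p = 0.0244). Sirt4, a mitochondrial sirtuin that the symbol rule takes in with the histone deacetylases, had 38.0 and 14.4 normalised counts in the cKO and 198 and 231 in the WT. Its log2 fold change was -3.03 ± 0.56 (edgeR adjusted p = 0.0355). It did not pass under TMM, RLE or upper quartile scaling (edgeR adjusted p = 0.384, 0.457 and 0.149). The remaining sirtuins Sirt2, Sirt3, Sirt5 and Sirt7 and the acetyltransferases Kat2a, Kat5 and Kat6b did not pass. Their log2 values lay between -2.74 (Sirt5) and 1.82 (Sirt3). The listed Kat2a transcript is noncoding, and that of Kat6b retains an intron. Hdac2, at 1.39, did not pass either, nor did Hdac4, with a noncoding transcript at -2.84 and a coding one at 1.05.

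**Figure D3:**
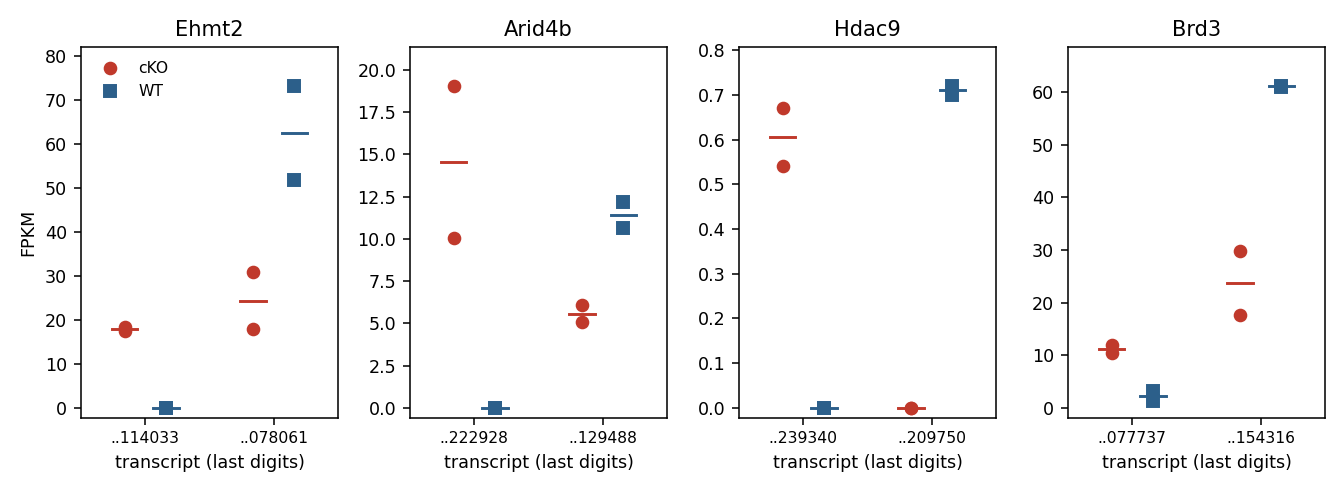
FPKM of 2 transcripts each of Ehmt2, Arid4b, Hdac9 and Brd3 in each library, with cKO as red circles left of WT as blue squares and bars at the means. Transcripts are named by the last digits of their Ensembl identifiers and the vertical axis differs between genes. In each gene the left transcript is higher in the cKO and the right one lower, though the left Brd3 transcript did not pass the test.

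Readers of histone marks had 24 listed transcripts, of which 8 of the 23 tested fell (34.8%, against 41.4% of the table) and 1 rose (4.35%, against 10.4%). Their median log2 value was -1.40 and turned to 0.26 under TMM and 0.33 under RLE. Phf7, a PHD finger ubiquitin ligase that acts on histones in mouse spermatids, was the most abundant member gene per length, with 415.3 and 396 FPKM over its listed transcripts in the cKO, against 781 and 695 FPKM in the WT. Its main transcript had 11002 and 10835 normalised counts in the cKO and 29629.9 and 28135 in the WT. The libraries within each genotype were nearly equal, and it fell by 1.40 ± 0.22 on the log2 scale with the authors' size factors (edgeR adjusted p = 0.0260), while its value was 0.092 under TMM and 0.15 under RLE. Brdt, the testis bromodomain protein that binds acetylated histones from meiosis onward, had 1480.1 and 833 normalised counts in the cKO and 3138 and 2222 in the WT. It did not pass (log2 -1.21 ± 0.37, edgeR adjusted p = 0.127), its FPKM values of 70.4 and 38.4 in the cKO and 104 and 69.9 in the WT overlapped, and it was 0.29 under TMM and 0.36 under RLE. These values are of Brdt-202, which is annotated to end well inside the gene with a coding sequence of 978 bases. Other Brdt transcripts are not in the table, so they concern a short isoform.

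Brd3, a bromodomain protein of the BET family, had transcripts with different first exons. Brd3-209 had 559 and 983 normalised counts in the cKO, against 2764 and 2949 in the WT, and fell by 1.89 ± 0.34 on the log2 scale (edgeR adjusted p = 0.0339). Its log2 value was -0.41 under TMM, -0.36 under RLE and -0.82 under upper quartile scaling, and it passed under none of these (edgeR adjusted p = 1, 1 and 0.252). Brd3-202, which is longer, had 909.7 and 829.5 normalised counts in the cKO and 136 and 370.1 in the WT, and did not pass (log2 1.78 ± 0.50, edgeR adjusted p = 0.104). The cKO libraries were lower for Brd3-209 and higher for Brd3-202. Of 4 listed transcripts of Brd9, a subunit of a SWI/SNF complex, Brd9-207 was at 0 in the cKO and had 17.1 and 12.9 normalised counts in the WT, at least 12.4-fold lower in the cKO (edgeR adjusted p = 0.0327). A transcript of Phf5a, which encodes a splicing factor with a PHD-like fold rather than a chromatin reader, had 0 reads in the cKO and 31.8 and 14.1 normalised counts in the WT, at least 18.9-fold lower in the cKO (edgeR adjusted p = 0.0378). Cbx6, a chromobox protein of Polycomb complexes, was the reader that rose, with 364 and 305 normalised counts in the cKO and 108 and 126 in the WT for an intron-retaining transcript (log2 1.51 ± 0.32, edgeR adjusted p = 0.0497). This call was lost with no filter and with a filter of 1 CPM in 2 samples (edgeR adjusted p = 0.0508 and 0.0538). With Sertoli counts set equal the Cbx6 value was 0.22, and it did not pass. The other calls among the readers were a second transcript of Phf7, a short noncoding transcript of Brd3 and both listed transcripts of the pseudogene Phf8-ps, which all fell, with log2 values of -1.26 to -3.40, though that second Phf7 transcript was at 0.23 under TMM and 0.29 under RLE. Transcripts of Brd1, Brd7, Brd8, Cbx5, Phf14, Phf20l1 and Phf21a did not pass, with log2 values between -3.05 (Phf21a) and 2.56 (Phf14), and that of Phf12 was too low to test.

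Remodellers use ATP to move, eject or exchange nucleosomes, and 12 of their 32 tested transcripts fell (37.5%, against 41.4% of the table) while 6 rose (18.8%, against 10.4%). Chd5, a helicase that mouse spermatids need for the exchange of histones for protamines, had 564 and 1222 normalised counts in the cKO, against 15095 and 21995 in the WT. The WT values were more than 10 times the cKO values in every pairing, and it fell by 4.38 ± 0.49 on the log2 scale (edgeR adjusted p = 0.0173), a direction that held under every scaling tried. A second long coding transcript of Chd5 fell by 2.71 ± 0.56 (edgeR adjusted p = 0.0460). That call was lost under TMM, RLE, upper quartile and library total scaling (edgeR adjusted p = 0.440, 0.479, 0.155 and 0.0520). By limma-voom it was lost too (adjusted p = 0.0929). The short noncoding Chd5 transcript had 15.4 and 0.800 normalised counts in the cKO and 209 and 99.6 in the WT. It did not pass (log2 -4.24 ± 1.06, edgeR adjusted p = 0.0752).

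Chd3 and Chd4 are, with Chd5, the helicases of the NuRD deacetylase complex. The long coding Chd3 transcript had 0 reads in both cKO libraries and 749 and 1025 normalised counts in the WT. It was at least 738-fold lower in the cKO (edgeR adjusted p = 0.0154). Other Chd3 transcripts are not in the table, so this value concerns a single isoform. Chd4 had 2206 and 1829 normalised counts in the cKO, against 5077 and 5009 in the WT, and fell by 1.32 ± 0.23 on the log2 scale with the authors' size factors (edgeR adjusted p = 0.0325), while its value was 0.18 under TMM and 0.24 under RLE. Chd6, another helicase of the family, was higher in the cKO libraries: a short transcript, Chd6-205, had 63.0 and 49.6 normalised counts in the cKO and 0 reads in the WT, at least 31.4-fold higher (edgeR adjusted p = 0.0234). Its full coding transcript had 1936 and 1948 normalised counts in the cKO and 866 and 1007 in the WT, and did not pass (log2 1.05 ± 0.23, edgeR adjusted p = 0.0544).

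Of the 7 listed transcripts of the 6 Smarca, Smarcc, Smarcd and Smarce genes of SWI/SNF, with Brd9 counted among the readers, 4 fell and 1 rose. All 7 were tested, so these were 57.1% and 14.3%, against 41.4% and 10.4% of the table. The median log2 value of the 7 was -1.61 with the authors' size factors, -0.10 under TMM and -0.041 under RLE. Smarca4 (BRG1), an ATPase of the complex that is needed in mouse spermatocytes, had 596 and 729 normalised counts in the cKO, against 1899 and 1619 in the WT. Both cKO values were lower, and it fell by 1.41 ± 0.25 on the log2 scale (edgeR adjusted p = 0.0344), while its value was 0.076 under TMM and 0.14 under RLE. Smarca2 (BRM), the alternative ATPase, had 2847 and 2261 normalised counts in the cKO, against 7422 and 8192 in the WT, for its longer transcript, and fell by 1.61 ± 0.24 (edgeR adjusted p = 0.0250), with -0.10 under TMM and -0.041 under RLE. The scaffold subunit Smarcc2 had 823 and 1869 in the cKO and 3508 and 4974 in the WT, a log2 value of -1.66 ± 0.45 that did not pass (edgeR adjusted p = 0.0929). An intron-retaining transcript of its relative Smarcc1 was the one that rose, at least 23.1-fold, with 44.4 and 38.4 normalised counts in the cKO and 0 reads in the WT (edgeR adjusted p = 0.0251).

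Arid4b, a subunit of the Sin3 corepressor that supports male fertility in the mouse, had transcripts in both directions. Arid4b-212, annotated as a target of nonsense-mediated decay, had 90.5 and 174 normalised counts in the cKO and 0 reads in the WT, at least 73.7-fold higher in the cKO (edgeR adjusted p = 0.0217). The coding transcript Arid4b-205 had 145 and 126 normalised counts in the cKO, against 417 and 387 in the WT, and fell by 1.57 ± 0.30 on the log2 scale (edgeR adjusted p = 0.0400). Its values did not overlap between the genotypes, as held for every member, and its log2 value was -0.069 under TMM and -0.0058 under RLE. Arid3a, a DNA-binding protein, fell for 2 of its 3 listed transcripts, with log2 values of -2.66 and -2.48 (edgeR adjusted p = 0.0298 and 0.0399). These Arid3a calls were lost under TMM, RLE and upper quartile scaling (edgeR adjusted p between 0.157 and 0.656). Arid4a, the partner of Arid4b in the same corepressor, had a short transcript with 47.7 and 18.4 normalised counts in the cKO and 0 reads in the WT, at least 18.4-fold higher in the cKO (edgeR adjusted p = 0.0450). The remaining remodeller genes with a call were Bptf, a subunit of the NURF complex, Smarce1, a SWI/SNF subunit, and Smarcad1, a remodeller of repaired and copied chromatin. The Bptf transcript, at 0.35 and 0.08 FPKM in the WT, was at 0 in the cKO and at least 45.2-fold lower there. The Smarce1 transcript, which is noncoding, fell by 3.36 ± 0.70 on the log2 scale. The Smarcad1 transcript was at 0 in the WT and at least 6.72-fold higher in the cKO. In edgeR, the Bptf call was lost under TMM, RLE and upper quartile scaling (adjusted p = 0.0804, 0.0732 and 0.0541). The Smarce1 call was lost under these and with library totals (edgeR adjusted p = 0.419, 0.478, 0.185 and 0.0667). The Smarcad1 call was lost with no filter in edgeR (adjusted p = 0.0652) and by DESeq2 (adjusted p = 0.206). Transcripts of Arid3b, Arid5a, Chd1, Chd7, Chd8, Chd9 and Smarcd2 were tested and did not pass, among them that of Chd1, at 0 in the cKO and at 13.5 and 72.6 normalised counts in the WT (edgeR adjusted p = 0.0616).

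**Figure D4:**
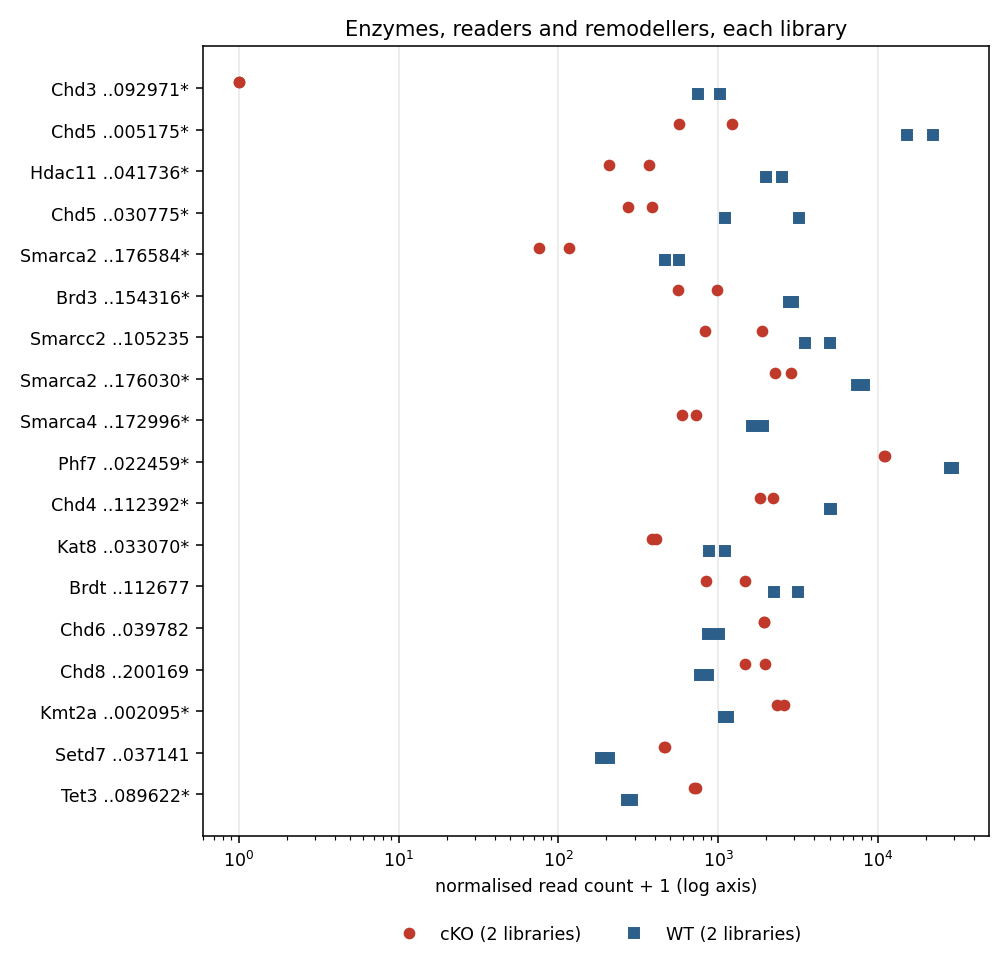
Normalised read counts plus 1 (log axis) of 18 transcripts of enzymes, readers and remodellers in each library, cKO as red circles and WT as blue squares, ordered by fold change and named by the last digits of the Ensembl identifier. Asterisks mark an edgeR adjusted p under 0.05. From Chd3 to Brdt both cKO libraries lie below both WT libraries, and from Chd6 to Tet3 they lie above.

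The enzymes of DNA methylation had 13 listed transcripts of 5 genes, with a median log2 value of 1.40 that stayed positive under each other scaling, at 0.094 with Sertoli counts set equal. Of the 11 tested, 1 fell and 1 rose (9.09% each, against 41.4% and 10.4% of the table). Dnmt3l, the cofactor without activity of its own that male germ cells need to methylate new sites, had 0 rounded reads in the cKO and 24.5 and 32.8 normalised counts in the WT for transcript Dnmt3l-203, at least 23.8-fold lower in the cKO (edgeR adjusted p = 0.0258). A second transcript, Dnmt3l-202, had 0 and 5.60 normalised counts in the cKO and 68.5 and 55.0 in the WT (log2 -4.40 ± 1.05, edgeR adjusted p = 0.0653). Both Dnmt3l transcripts were thus scarce, and lower in the cKO libraries. Each starts inside the gene and is annotated with a coding sequence of 378 bases. Other Dnmt3l transcripts are not in the table, so these values concern short isoforms.

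Tet3, which oxidises methylated cytosine, had 702 and 726 normalised counts in the cKO, against 268 and 289 in the WT. The libraries within each genotype were close, and it rose by 1.36 ± 0.26 on the log2 scale (edgeR adjusted p = 0.0390), which became 0.058 with Sertoli counts set equal. All 7 listed transcripts of Tet2 and Tet3 were higher in the authors' deposited table, and the 3 of Tet2 had log2 values of 1.24 to 1.49 and did not pass. The methyltransferase Dnmt3a had 541 and 534 normalised counts in the cKO and 257 and 124 in the WT for its main transcript (log2 1.50 ± 0.42, edgeR adjusted p = 0.101). Dnmt3b had 84.0 and 92.0 in the cKO, against 0 and 12.9 in the WT (log2 3.73 ± 1.08, edgeR adjusted p = 0.110). For both genes the WT libraries differed between themselves by more than the cKO libraries did.

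Of the 25 member genes with several listed transcripts, 8 had transcripts in both directions in the authors' deposited table, 32.0% of them, against 412 of 2322 such genes (17.7%) in the whole table, a difference that was not tested. Ehmt2, Hdac9 and Arid4b did so among the edgeR calls, 3 of the 37 member genes with a call, against 145 of 4039 genes with a call in the table. In all, 15 members (11.3%) had 0 reads in both WT libraries and 17 (12.8%) had 0 reads in both cKO libraries, against 7.27% and 8.14% of the table. The members higher in the authors' deposited table were longer, with a median of 2975 bases, against 1690 for those lower, and the same values over the table were 2882 and 1584 bases. Retained introns made up 14 of the 60 higher members with an annotation (23.3%) and 8 of the 72 lower ones (11.1%), against 17.2% and 7.87% of the table. The members thus showed the same order of length and of intron retention as the table as a whole.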

How the data were processed

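Testis RNA was sequenced in 4 libraries, 2 labelled cKO and 2 labelled WT. For each Ensembl transcript, the authors deposited a length and, per library, a read count and its FPKM. The deposited counts are headed raw reads but are not all whole numbers, so they were taken to be expected counts, estimated by the authors. The deposited normalized counts are a mean signal of all 4 libraries. The log2 fold changes and p-values deposited beside them are the authors' own. The single-sample files repeat the FPKM of the table in 45216 of 45216 values. The submitters' processing notes name mm9, but 98.7% of the 7437 gene IDs found in GENCODE vM21 have its GRCm38 coordinates, so GRCm38 is given. Aligner, counter and strandedness are each not given in the sources used here, so reads of overlapping or antisense genes may be mixed.

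The authors' size factors were recovered from their mean normalized counts (largest relative misfit 4.9e-10), and library totals from counts, length and FPKM for transcripts with 2000 or more bases and 500 or more reads (median misfit at most 0.0129%). Rounded expected counts entered edgeR 4.0.16 (glmQLFit, glmQLFTest, genotype only) in R 4.3.3, and 10716 of 11304 transcripts passed filterByExpr at a minimum count of 10. The adjustment ran over 64840 transcripts, those outside the table given the largest p, with a threshold of 0.05. The fit had 2 residual and 3.51 prior degrees of freedom and a common biological coefficient of variation of 32.5%, estimated on transcripts already selected. Where a genotype had 0 reads, 3 counts over the group set the bound of the fold. Libraries of a genotype were not duplicates (chi-square per degree of freedom 30.6 in the cKO and 35.9 in the WT). The labels do not state separate animals for them, so p-values measure only the spread between these samples. The code was tested on simulated counts.

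The members, the role groups and the gene lists were chosen with earlier results of these data known. The named genes were, per role, the 4 with the smallest p, the call of the rarer direction with the smallest p and the most abundant per length, 20 genes known from germ cells where listed (6 were), and genes called in both directions. Other genes named, and the subgroups of clustered histones and Smarc subunits, were chosen after their values were seen. Values of some members are not reported here. Alternatives were scaling by TMM, RLE, upper quartile, equal Sertoli counts or library totals, other filters, DESeq2 1.42.0, limma 3.58.1 (voom, and log2(FPKM + 0.1) or log2(FPKM + 1)), the replicate number as a block, and leaving out each library. Intervals and floors cover counting error only: without molecular identifiers, reads are not independent molecules.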

Additional observations from a re-analysis of the deposited data

How the results depend on the processing

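With 2 libraries a genotype and a table of selected transcripts, the number of calls depended on the scaling. Against 36 members lower and 14 higher, TMM gave 11 and 58, RLE 11 and 59, upper quartile 12 and 58, library totals 22 and 44, and equal Sertoli counts 65 and 7. By construction these scalings move all log2 values together. TMM and RLE bring the median of the selected table close to no change, so modest falls turn sign under them. Equal Sertoli counts remove a difference for which the listed markers were selected, so modest rises shrink or turn sign. Such a turn does not show which direction is right. Adjusting over the listed transcripts only gave 64 and 55, limma on log2(FPKM + 0.1) 18 and 31, limma on log2(FPKM + 1) 25 and 44, and DESeq2 51 and 27. limma-voom gave 33 and 16, no filter 35 and 11, and a filter of 1 CPM in 2 samples 29 and 12. Leaving out each library in turn gave 0 to 58 lower and 0 to 32 higher. The 0 calls came without either WT library by edgeR, where 50 and 52 members were lower and 34 and 35 higher at an unadjusted p under 0.05, and no other tool was run on 3 libraries. Among the 39 named transcripts, direction turned under TMM and RLE for Phf7 (0.092 and 0.15), Brdt (0.29 and 0.36) and Smarca4 (0.076 and 0.14), and with equal Sertoli counts for Kdm1b (-0.24), Kmt2a (-0.18) and Setd7 (-0.058). Of the 50 called members, TMM and RLE each tested 47, turned 5 and lost 17 more. The 5 were Smarca4, both called Phf7 transcripts (the other at 0.23 and 0.29), Chd4 (0.18 and 0.24) and Kat8 (0.17 and 0.24), and equal Sertoli counts turned 1 of 49, Kmt2a.

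Samples with the same number had a correlation of deviations of 0.128 over 10432 transcripts, with 2 pairs only, and the labels give the number no meaning. With the number as a block, 27 members were lower and 6 higher. Where a genotype is at 0 reads, the 3-count floor limits the fold that the depth can show.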

Other observations

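Chromatin genes outside the symbol rule gave further transcripts. Over the whole table, 41.4% of tested transcripts fell and 10.4% rose, and the shares below were not tested against these. Hils1, a linker histone of elongating spermatids, had 267 and 380.0 normalised counts in the cKO, against 3826 and 2984 in the WT, a log2 fold change of -3.40 ± 0.31 (edgeR adjusted p = 0.0154). Cdyl, a chromodomain protein linked to histone crotonylation in spermatids, had 767 and 1254 in the cKO, against 6200 and 6338 in the WT (log2 -2.63 ± 0.32, edgeR adjusted p = 0.0186). Both genes were lower in both cKO libraries. Of 16 genes of histone exchange and chaperoning, 7 were listed, and 5 of their 8 tested transcripts fell while 0 rose. Nasp, a chaperone of H1 and H3, had 10657 and 7450 normalised counts in the cKO, against 32141 and 24239.8 in the WT (log2 -1.64 ± 0.30, edgeR adjusted p = 0.0349).

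Of 33 genes of acetylation and corepressor complexes, 18 were listed, with 12 of 34 tested transcripts falling and 3 rising. Morf4l1, a chromodomain subunit of acetyltransferase and deacetylase complexes, went both ways: ENSMUST00000191189 had 1635 and 4587 normalised counts in the cKO, against 35.5 and 42.2 in the WT (log2 6.32 ± 0.64, edgeR adjusted p = 0.0156), and ENSMUST00000169860 had 5264 and 3465 in the cKO, against 13226 and 15365 in the WT (log2 -1.71 ± 0.29, edgeR adjusted p = 0.0311). Of 26 Polycomb genes, 10 were listed, with 3 of 19 tested transcripts falling and 1, of L3mbtl4, rising, at 643 and 648 normalised counts in the cKO, against 177 and 173 in the WT (log2 1.88 ± 0.27, edgeR adjusted p = 0.0237). The other lists, of histone methylation, remodelling, and ubiquitin and DNA binding, had 5 of 16, 3 of 8 and 1 of 6 tested transcripts falling and 1, 0 and 2 rising. The genes named were chosen after their values were seen, and the part of cell composition was not tested.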
